A study of Mus musculus with 3 samples.

Results

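Imprinted genes, which are read mainly from the copy inherited from one parent, were followed in C3H10T1/2 cells carrying Venus-Mkx, in C3H10T1/2 cells carrying Venus and in unmodified C3H10T1/2 cells. The list held 36 genes, taken by symbol, and 33 of them had at least 1 probe set paired with that symbol alone, among 18193 genes of the array as a whole. H19, Dio3 and Slc22a3 had none and were not analysed as genes here. C3H10T1/2 is an established mouse line of mesenchymal cells, and all 3 conditions share this background and the same serum-containing medium. The array labelled Venus-Mkx holds RNA of cells given a retrovirus that encodes the homeobox factor Mohawk (Mkx) joined to the fluorescent protein Venus, and the Venus array that of cells given the same vector with Venus only. The C3H10T1/2 array holds RNA of cells without vector. Infected cells were kept with puromycin according to the methods of the study, and the sources used here do not say whether a population or a clone was taken. RNA of each condition was read on 1 Affymetrix mouse whole-genome expression array, so no difference has a replicate check and no p-value is given.

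In mammals a small set of genes carries DNA methylation marks from the egg or the sperm, and these marks decide which parental copy is read. The genes lie in clusters, each with a control region and often with a long noncoding RNA that silences its neighbours in cis. Many act on growth before birth: Igf2 encodes a growth factor, Igf2r the receptor that takes IGF2 up for breakdown, and Grb10 an adaptor that restrains insulin and IGF signalling. An array reads both copies together, so the parental origin given here for each gene is textbook knowledge for the mouse and was not measured.

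The values are log2 probe set values, and a gene was read by its probe set with the highest mean. Values under a floor of 4.34, which is the median over all probe sets and arrays, were not read as expression. A gene counts as measured if at least 1 of its 3 values is at the floor or above. Of all probe sets, 24.6% held an equal value on all 3 arrays, so such ties are common and are not read as a lack of change. Higher or lower means at least 2-fold above or below both control arrays, with values below the floor taken as they stand. Mkx itself (1437492_at) had a log2 value of 2.71 on the array labelled Venus-Mkx, against 7.43 in Venus and 6.88 in C3H10T1/2, which goes against the label. Whether this probe set lies in the part of Mkx carried by the vector is not known here, so the library is called the array labelled Venus-Mkx. Over 11169 measured genes the SD of the log2 difference was 0.94 between the array labelled Venus-Mkx and Venus, against 0.34 between Venus and C3H10T1/2. Over all measured genes 6.82% were higher and 5.34% were lower, and with so few markers the counts below are a description. All 9 markers of mesenchymal fibroblasts, among them Vim, Pdgfra and Prrx1, were measured. Thy1 and Col1a1 were higher and 7 were neither. Of the 9, 5 lay above both controls and 3 below both. Pdgfra, 1 of these 3, had 9.14 on the array labelled Venus-Mkx, against 9.84 in Venus and 10.15 in C3H10T1/2. Thy1 had a log2 value of 8.68 on the array labelled Venus-Mkx, against 7.26 in Venus and 7.27 in C3H10T1/2, and Col1a1 had 13.22, against 11.88 and 11.52. Of 5 macrophage markers, Csf1r and Lyz2 were higher and Ptprc, Cd68 and Adgre1 were below the floor on all 3 arrays. On a linear scale the summed level of the 5 was 279 on the array labelled Venus-Mkx, against 101 in Venus and 66.4 in C3H10T1/2. Of 4 endothelial markers, Tek was higher and Pecam1, Cdh5 and Kdr were below the floor, and the summed level was 87.3, against 40.6 and 48.6. Of 4 skeletal muscle markers, Myog was lower, with 3.76, against 6.15 in Venus and 5.53 in C3H10T1/2, Myod1 and Ckm were neither and Myf5 was below the floor. Their summed level was 56.4, against 119 and 95.4. The sums of all marker types take in values under 4.34. In the muscle sum of 56.4, Myod1 (4.18), Myog and Myf5 (1.77) were such values, and Ckm had 4.41. In the endothelial sum of 40.6 for Venus every marker was such a value, Tek with 4.02. Nothing is read from these 2 types of sum beyond the calls of Myog and Tek. Of 4 epithelial markers, Epcam was neither, with 7.60, against 7.03 in Venus and 6.74 in C3H10T1/2, and the others were below the floor. All 6 markers of pluripotent and trophoblast cells were below it. Of 3 liver markers, Ttr was neither and the others were below the floor. The part of such markers in the results was not tested. In bulk RNA, fewer cells of a type and less RNA per cell cannot be told apart.

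Of the 33 imprinted genes, 18 were measured, and these split into 4 that were higher, 3 that were lower and 11 that were neither on the array labelled Venus-Mkx. Igf2 and Peg3, both read from the paternal copy, had the largest differences, and Meg3 and Plagl1 were higher to a lesser extent. Igf2r, Grb10 and Sgce were lower. The higher genes were 22.2% of the measured imprinted genes and the lower genes 16.7%, whereas 6.82% of all measured genes were higher and 5.34% were lower. With 18 genes chosen with earlier results of these arrays known, these shares are a description. The median log2 difference of the 18 was 0.25 from Venus and 0.077 from C3H10T1/2, beside 0.00 for both over all measured genes. The median size of the difference from Venus, regardless of sign, was 0.69 for the imprinted genes and 0.28 for all measured genes. At the level of single probe sets, the 33 genes held 93, of which 50 reached the floor. Of these 50, 11 probe sets of 4 genes were higher and 4 probe sets of 3 genes were lower, where 5.75% and 5.45% of all measured probe sets were. Among the 11 are 1415931_at of Igf2 and 1417356_at of Peg3, whose controls were below the floor. With the controls set to the floor these were 1.62-fold and 1.48-fold higher, short of 2-fold.

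**Figure D1:**
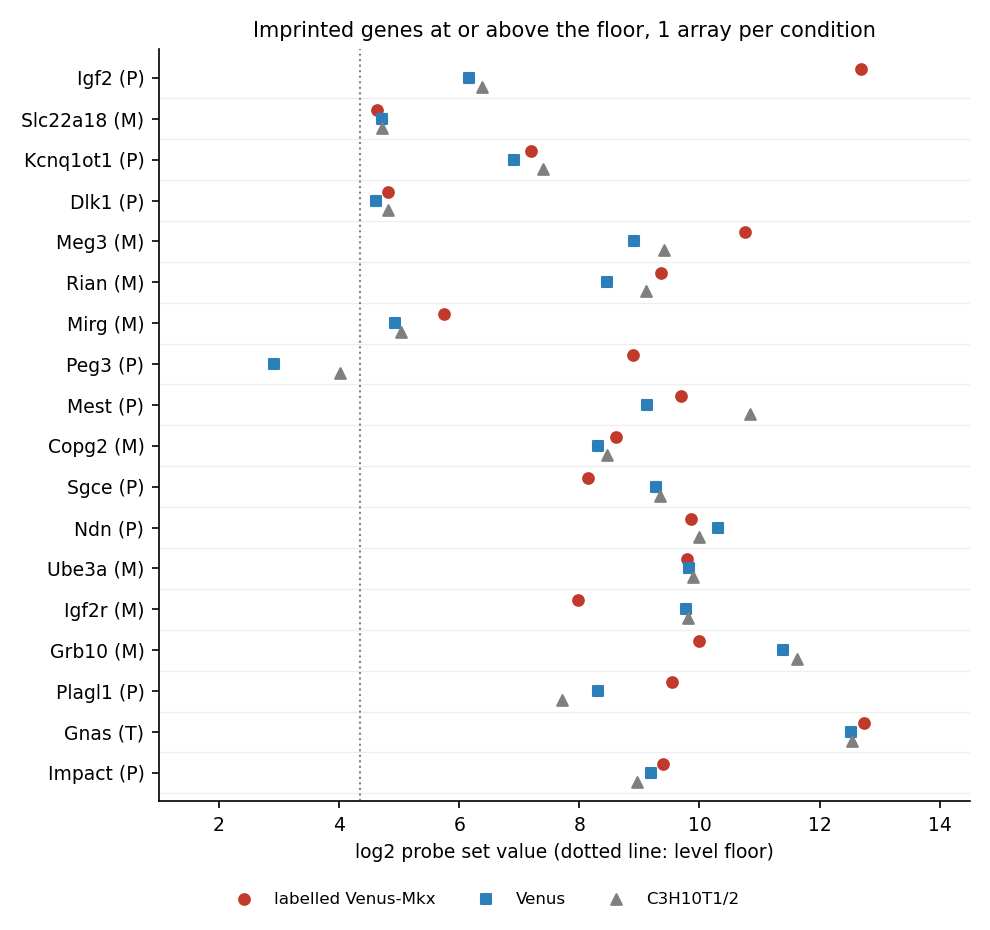
Log2 values of the 18 measured imprinted genes on the array labelled Venus-Mkx (circles), the Venus array (squares) and the C3H10T1/2 array (triangles), 1 array per condition. P, M and T mark paternally expressed, maternally expressed and transcript-dependent genes, and the dotted line is the floor of 4.34. Igf2 and Peg3 lie far to the right on the array labelled Venus-Mkx, and the symbols of most other genes lie close together.

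Igf2, which encodes insulin-like growth factor 2, was read by 2 probe sets. The probe set 1448152_at had a log2 value of 12.70 on the array labelled Venus-Mkx, against 6.16 in Venus and 6.38 in C3H10T1/2. All of these values lay above the floor, and the difference was 6.54 from Venus and 6.32 from C3H10T1/2, or 92.9-fold and 79.7-fold. The other probe set, 1415931_at, had 5.04 on the array labelled Venus-Mkx, against 2.72 and 2.92, and because both controls were below the floor it was at least 1.62-fold higher. Both probe sets pointed the same way, and Venus differed from C3H10T1/2 by −0.22 at the first. The neighbour H19, a noncoding RNA read from the maternal copy and controlled by the same region, had no probe set of its own. The probe set 1448194_a_at is annotated to both H19 and Mir675, a microRNA gene that lies inside H19, and was counted for neither. It had a log2 value of 5.34 on the array labelled Venus-Mkx, against 8.02 in Venus and 7.41 in C3H10T1/2. This is a difference of −2.68 and −2.06, opposite in sign to that of Igf2. The array does not read the mature microRNAs of this locus. They are shown because miR-675 sets the shared name of that probe set and miR-483 lies inside Igf2, with the seed (bases 2 to 8) in capitals. None of the 4 seeds is shared. The sequences are those of RefSeq on GRCm38.p6.
mmu-miR-675-5p: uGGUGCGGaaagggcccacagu
mmu-miR-675-3p: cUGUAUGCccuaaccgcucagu
mmu-miR-483-5p: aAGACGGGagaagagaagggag
mmu-miR-483-3p: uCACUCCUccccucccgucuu

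The Igf2 gene has several start sites, and RefSeq gives 4 windows of 250 bases before to 50 bases after a start. The probe set value does not tell which start was used. Among the windows, the one at chr7:142661222-142661521 (minus strand, GRCm38.p6) was the only one with a match to a searched motif. It is shown with that match in capitals, TGCCGC on the opposite strand, the core bound by Zfp57, a zinc finger protein that keeps imprints in the early embryo. The letters TGCCGC occur on either strand in 11.6% of all 32851 windows and in 12 of the 47 windows that cover 31 of the 36 genes, so the match is common.
Igf2 promoter window: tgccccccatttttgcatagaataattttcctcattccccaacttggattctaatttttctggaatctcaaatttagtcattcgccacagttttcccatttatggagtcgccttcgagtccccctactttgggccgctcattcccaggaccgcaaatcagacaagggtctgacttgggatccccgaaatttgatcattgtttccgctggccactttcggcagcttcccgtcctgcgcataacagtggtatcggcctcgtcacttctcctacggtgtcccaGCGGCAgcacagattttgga

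Peg3 was the other gene with a large difference. It encodes a large zinc finger protein expressed from the paternal copy in embryonic mesoderm and brain. The probe set 1433924_at had a log2 value of 8.89 on the array labelled Venus-Mkx, against 2.91 in Venus and 4.01 in C3H10T1/2. Both controls lay below the floor, so the gene was at least 23.45-fold higher, and the difference of 5.98 and 4.88 as read is not exact. A second probe set, 1417355_at, had 7.69 on the array labelled Venus-Mkx, against 3.54 and 3.76, and 1417356_at had 4.91, against 2.62 and 2.88. In all 3 the array labelled Venus-Mkx alone was above the floor. The other 2 probe sets of Peg3 held an equal value on all 3 arrays, below the floor. Usp29, a deubiquitinase gene read in the opposite direction from the same start region, was below the floor, with 2.40 on the array labelled Venus-Mkx, against 2.18 in Venus and 2.40 in C3H10T1/2. Zim1, a maternally expressed zinc finger gene of the cluster, was below the floor as well, with 2.53 on the array labelled Venus-Mkx, against 2.51 and 2.58. The windows of Peg3 and Usp29 share 263 bases on opposite strands. The Peg3 window at chr7:6730370-6730669 (minus strand, GRCm38.p6) is shown because it is common to a gene that was higher and one that was not measured. The capitals mark GGGGCCCC, the palindrome bound by Plagl1, whose first base is at −201 from the start of Peg3. These letters occur in 1.08% of all windows and in 4 windows of the 36 genes, those of Peg3, Usp29, Ppp1r9a and Rasgrf1, of which only Peg3 was measured. In the Peg3 and Usp29 windows it is the same stretch of DNA. A match is a description of letters and not a binding site.
Peg3 promoter window: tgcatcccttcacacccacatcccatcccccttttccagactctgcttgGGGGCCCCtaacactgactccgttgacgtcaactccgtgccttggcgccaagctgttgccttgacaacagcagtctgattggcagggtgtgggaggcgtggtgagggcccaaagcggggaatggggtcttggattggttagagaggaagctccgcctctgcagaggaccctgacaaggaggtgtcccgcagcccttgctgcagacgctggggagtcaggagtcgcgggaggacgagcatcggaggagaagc

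Plagl1, also called Zac1, encodes a zinc finger transcription factor known to act on other imprinted genes. The probe set 1426208_x_at had a log2 value of 9.54 on the array labelled Venus-Mkx, against 8.30 in Venus and 7.70 in C3H10T1/2, a difference of 1.24 and 1.84. Venus lay between the other arrays, 0.60 above C3H10T1/2. The other 2 probe sets of Plagl1 were below the floor on all 3 arrays, so the higher value rests on 1 probe set, of a kind whose probes can also bind other transcripts. Cdkn1c, the cell cycle inhibitor p57 and a known target of this factor, was below the floor with an equal value of 2.72 on all 3 arrays.

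In the Dlk1-Dio3 cluster the maternally expressed noncoding RNAs all lay above both controls, and Meg3 was the one that passed 2-fold. Meg3 is a long noncoding RNA. Its probe set 1439380_x_at had a log2 value of 10.76 on the array labelled Venus-Mkx, against 8.91 in Venus and 9.41 in C3H10T1/2, a difference of 1.84 and 1.34. Meg3 had 11 probe sets, of which 10 reached the floor and 5 were higher, and none was lower. Of these 10, 9 lay above both controls, and over the 10 the differences from Venus ran between 0.21 and 2.23. The probe set 1452183_a_at had the largest of these, with 10.53 on the array labelled Venus-Mkx, against 8.30 and 8.89. The 10th, 1429257_at, had 4.76, against 4.55 in Venus and 4.87 in C3H10T1/2. Rian, which hosts small nucleolar RNAs, had 9.36 on the array labelled Venus-Mkx (1452899_at), against 8.47 in Venus and 9.10 in C3H10T1/2. Its difference was 0.89 from Venus and 0.25 from C3H10T1/2, and 3 of its 4 probe sets lay above both controls. Mirg, whose transcript holds a run of microRNA hairpins, had 5.74, against 4.93 and 5.03, a difference of 0.81 and 0.71. Dlk1, a paternally expressed gene of the cluster, encodes a transmembrane protein that holds back fat cell differentiation. It had 4.81 on the array labelled Venus-Mkx, against 4.62 in Venus and 4.81 in C3H10T1/2, close to the floor. The start of Meg3 is shown because it is the one in this cluster whose gene passed 2-fold, at chr12:109540746-109541045 (plus strand, GRCm38.p6). The capitals mark TGCCGC on the opposite strand and TATAAA, which was found on both strands in overlapping positions. The match on the strand of the gene begins at −25 from the start. The letters TATAAA occur in 13.6% of all windows and in 9 windows of the 36 genes.
Meg3 promoter window: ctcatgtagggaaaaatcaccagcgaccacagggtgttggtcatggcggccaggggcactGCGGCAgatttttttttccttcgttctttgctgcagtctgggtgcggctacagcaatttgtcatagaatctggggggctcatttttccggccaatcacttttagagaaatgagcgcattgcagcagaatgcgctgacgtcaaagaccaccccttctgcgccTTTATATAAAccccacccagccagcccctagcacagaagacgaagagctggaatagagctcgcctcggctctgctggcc

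Igf2r and Airn, the genes of the Igf2r cluster that were read, were both lower. Igf2r, expressed from the maternal copy in most mouse tissues, had a log2 value of 7.97 on the array labelled Venus-Mkx (1424112_at), against 9.77 in Venus and 9.82 in C3H10T1/2. The difference was −1.80 and −1.84, or 3.47-fold and 3.59-fold lower. Its second probe set, 1424111_at, had 6.63, against 8.54 and 8.41. The control arrays lay within 0.13 of each other at both probe sets, far less than their distance from the array labelled Venus-Mkx. Airn, a noncoding RNA of the paternal copy that runs antisense across the start of Igf2r and silences it there, is not among the 36 genes and was taken from the list of other imprinted genes and neighbours. Its probe set 1451634_at had 4.55 on the array labelled Venus-Mkx, against 7.61 in Venus and 7.67 in C3H10T1/2, a difference of −3.06 and −3.12. Of its 5 probe sets, 4 were lower and 1 was below the floor on all arrays. Which strand each probe set reads was not checked here, so reads of Airn and of unspliced Igf2r cannot be told apart.

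Grb10 and Sgce were also lower. Grb10 had a log2 value of 9.99 on the array labelled Venus-Mkx (1425458_a_at), against 11.39 in Venus and 11.62 in C3H10T1/2, a difference of −1.40 and −1.63. A second probe set, 1430164_a_at, had 5.29, against 6.23 and 6.91. This is a difference of −0.93 from Venus, short of 2-fold, and of −1.62 from C3H10T1/2. The third was below the floor with an equal value on all arrays. Sgce, which encodes ε-sarcoglycan, a membrane protein of the dystrophin complex, had 8.14 on the array labelled Venus-Mkx (1420688_a_at), against 9.27 in Venus and 9.34 in C3H10T1/2. Its difference of −1.13 and −1.20 lies just past 2-fold. Its second probe set had 4.25, below the floor, against 5.08 and 5.10. Of the other genes of that cluster, the retrotransposon-derived gene Peg10 held an equal value of 2.58 on all 3 arrays, and Ppp1r9a and Asb4 were below the floor.

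**Figure D2:**
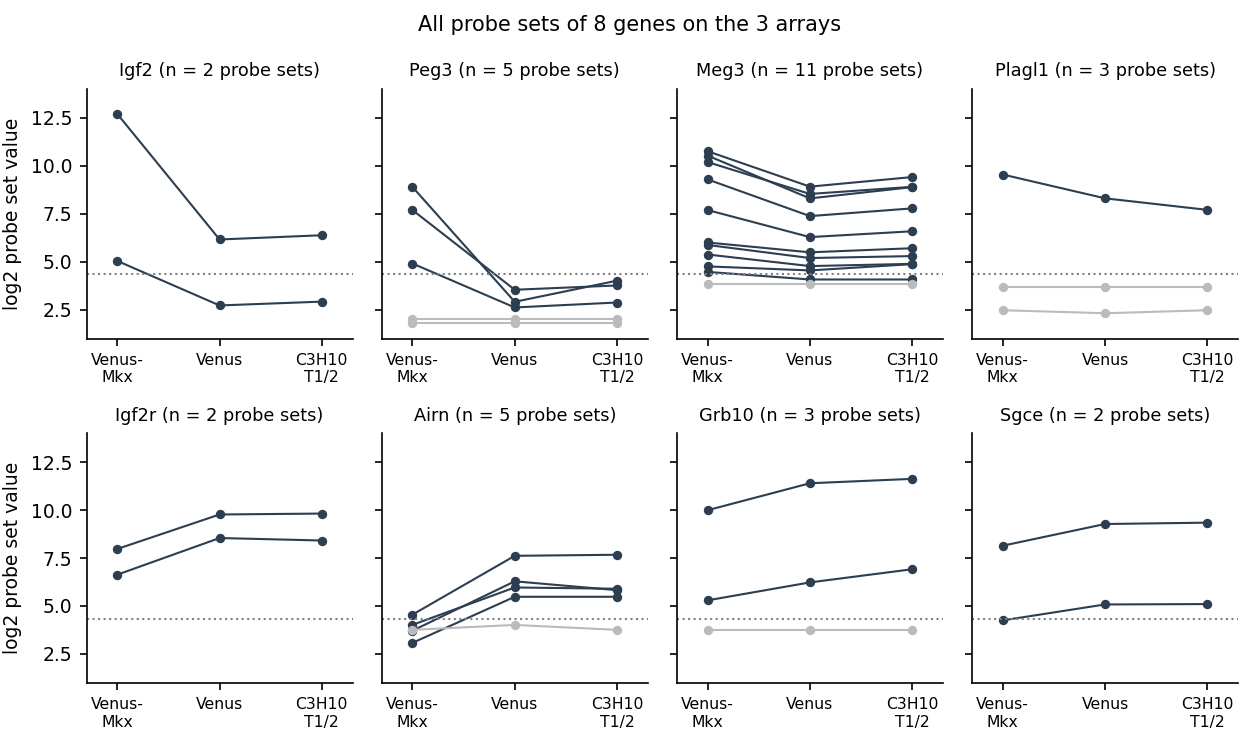
Log2 value of every probe set of 8 genes on the array labelled Venus-Mkx, the Venus array and the C3H10T1/2 array, 1 array per condition. Each line is a probe set, grey lines are probe sets below the floor on all 3 arrays, and the dotted line is the floor of 4.34. The 2 probe sets of Igf2 and 3 of the 5 of Peg3 are higher on the array labelled Venus-Mkx, and both probe sets of Igf2r and 4 of the 5 of Airn are lower.

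The 11 measured genes that were neither higher nor lower had differences from Venus between −0.45 and 0.89. Of these, 8 lay within 0.5 of both controls on the log2 scale. Gnas, which encodes the stimulatory G protein α-subunit and is imprinted by transcript, had 12.74 on the array labelled Venus-Mkx, against 12.53 in both controls. Ube3a, a ubiquitin ligase gene imprinted in neurons, had 9.80, against 9.82 in Venus and 9.89 in C3H10T1/2. Its probe sets disagreed, with differences from Venus between −0.87 and 0.53 among 5 that reached the floor. Ndn, which encodes the growth regulator necdin, had 9.86, against 10.31 in Venus and 9.99 in C3H10T1/2. All 5 of its probe sets above the floor lay below both controls, with differences between −0.67 and −0.45 from Venus and between −0.51 and −0.13 from C3H10T1/2, short of 2-fold. Kcnq1ot1, the noncoding RNA that silences the Cdkn1c side of the distal cluster, had 7.20, against 6.91 and 7.40, inside the range of the controls. Impact, a regulator of translation, Copg2, a coat protein gene beside Mest, and Slc22a18, a transporter gene, differed from both controls by less than 0.5.

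Mest, a paternally expressed gene of the α/β-hydrolase fold family, was the one measured imprinted gene for which the controls themselves were more than 2-fold apart with both above the floor. Its single probe set had 9.68 on the array labelled Venus-Mkx, against 9.13 in Venus and 10.84 in C3H10T1/2. The array labelled Venus-Mkx lay between the controls, with a log2 difference of 0.56 from Venus and −1.16 from C3H10T1/2. Venus differed from C3H10T1/2 by −1.71. Peg3 was also read more than 2-fold apart between the controls, with a difference of −1.10 between Venus and C3H10T1/2, but both values were below the floor. The 2-fold rule thus counted 2 of the 18 genes as lower in Venus and none as higher, where 0.555% of all measured genes were lower and 1.49% were higher. Since the values of Peg3 cannot be read, only Mest stands behind that count, and nothing is read from it against the background. A difference between cultures and an effect of the vector cannot be told apart here. The median size of the difference between the controls was 0.22 for the 18 genes and 0.10 for all measured genes.

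**Figure D3:**
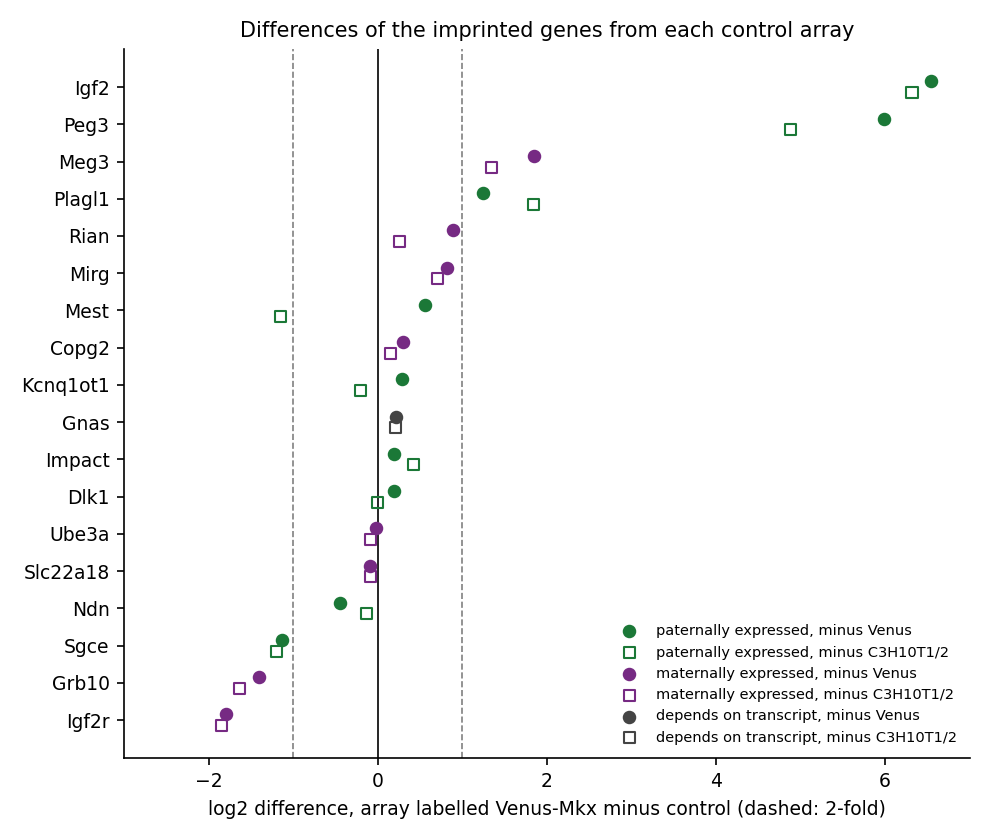
Log2 difference of the array labelled Venus-Mkx from Venus (filled circles) and from C3H10T1/2 (open squares) for the 18 measured imprinted genes, coloured by expressed parental copy, 1 array per condition. Dashed lines mark 2-fold. Igf2, Peg3, Meg3 and Plagl1 lie beyond the right line for both controls, Sgce, Grb10 and Igf2r beyond the left one, and Mest lies on either side of 0.

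Sorted by expressed copy, both kinds held higher and lower genes. Of 19 paternally expressed genes, 18 had a probe set and 9 were measured: Igf2, Peg3 and Plagl1 were higher, Sgce was lower and 5 were neither. Of 16 maternally expressed genes, 14 had a probe set and 8 were measured: Meg3 was higher, Igf2r and Grb10 were lower and 5 were neither. The median difference from Venus was 0.29 for the paternally and 0.14 for the maternally expressed genes, and from C3H10T1/2 it was 0.00 and 0.033. With 9 and 8 genes the medians do not set the kinds apart. Sorted by cluster, no cluster held both a higher and a lower measured gene of the list. Since 6 of the 7 called genes were the only measured gene of their cluster, this says little. H19, of the same cluster as Igf2, is left out of this count. The probe set it shares with Mir675 had a difference of −2.68 from Venus and −2.06 from C3H10T1/2, opposite in sign to Igf2.

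The 15 genes with a probe set that stayed below the floor were Cdkn1c, Phlda2, Ascl2, Usp29, Zim1, Peg10, Ppp1r9a, Asb4, Magel2, Mkrn3, Snrpn, Nnat, Rasgrf1, Nap1l5 and Zdbf2. Their highest value was 4.33, that of Phlda2, a gene that restrains growth of the placenta, on the array labelled Venus-Mkx, against 4.12 in both controls. Their differences from Venus were at most 0.42 in size and cannot be read. Among them are genes best known from placenta or brain, such as Ascl2, a trophoblast factor, Rasgrf1, a Ras exchange factor of neurons, and Nnat, or neuronatin. Snrpn, a splicing protein gene, was judged by 1 probe set of its own, which was below the floor. Of 6 probe sets shared with Snurf, the gene on the same transcript, 1415895_at had 8.83 on the array labelled Venus-Mkx, against 8.56 in both controls. The share of imprinted genes measured was 54.5%, and that of all genes was 61.4%.

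The genes around IGF2 as a ligand differed in both directions. Of 18 listed genes of the IGF pathway outside the imprinted set, 17 had a probe set and 15 were measured, of which 3 were higher, 4 were lower and 8 were neither, beside 6.82% higher and 5.34% lower over all measured genes. The 3 higher genes encode binding proteins that hold IGFs outside the cell, but other measured genes of such proteins were not higher. Igfbp2 had 12.65 on the array labelled Venus-Mkx, against 6.99 in Venus and 6.90 in C3H10T1/2. Igfbp3 had 9.42, against 3.39 and 3.48, which is at least 33.8-fold because both controls were below the floor. Igfbp6 had 5.93, against 4.39 in both controls. The lower genes were Igf1, Irs1, Pappa and Pappa2. Igf1, the other growth factor that acts on the same receptor, had 6.62, against 8.72 and 8.95, and its 4 probe sets were all lower. Pappa2, a protease that frees IGFs from binding proteins, had 3.61, below the floor, against 9.39 and 10.47. Its relative Pappa had 2.89, also below the floor, against 6.59 and 6.13. With the low value set to the floor, Pappa2 was at least 33.1-fold lower than Venus and 70.1-fold lower than C3H10T1/2. For Pappa these bounds were 4.77-fold and 3.45-fold. Another probe set of Pappa, 1427633_a_at, had bounds of 2.12-fold and 1.56-fold, the latter short of 2-fold. Irs1, an adaptor inside the cell, had 10.79, against 11.85 and 12.18. The receptor genes were neither: Igf1r had 8.43, against 9.14 and 9.26, and Insr had 8.19, against 7.51 and 7.39. The median difference of the 15 genes was −0.32 from Venus. Thus on the same array the Igf2 ligand gene was higher while Igf1 and Igf2r were lower.

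**Figure D4:**
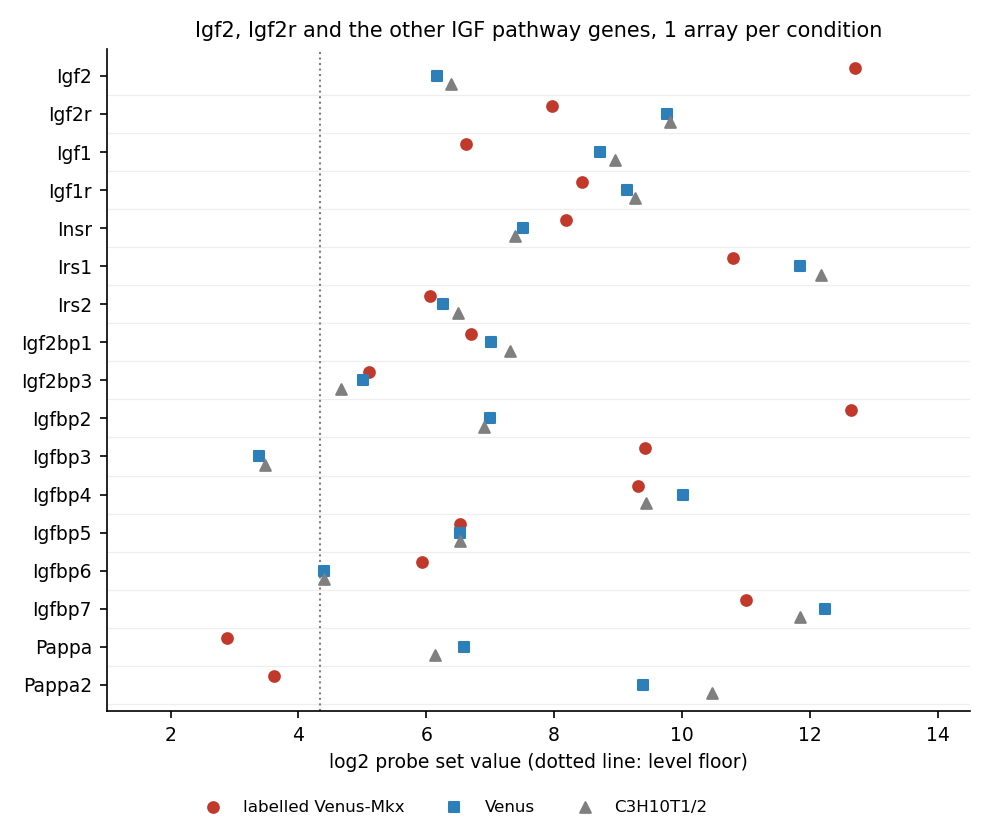
Log2 values of Igf2, Igf2r and the 15 measured genes of the IGF pathway list on the array labelled Venus-Mkx (circles), the Venus array (squares) and the C3H10T1/2 array (triangles), 1 array per condition, with the floor of 4.34 as a dotted line. Igf2, Igfbp2 and Igfbp3 lie far to the right on the array labelled Venus-Mkx, and Pappa and Pappa2 far to the left.

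Among 50 other genes that are imprinted in some tissue or lie beside imprinted genes, 42 had a probe set and 28 were measured. Of these, 3 were higher, 3 were lower and 22 were neither, and the median difference from Venus was 0.00. Over all measured genes 6.82% were higher and 5.34% were lower, and with so few genes the counts are a description. Besides Airn, the lower genes were Slc38a1, an amino acid transporter gene beside the imprinted Slc38a4, and Dhcr7, which encodes the last enzyme of cholesterol synthesis. Slc38a1 had 4.44 on the array labelled Venus-Mkx, against 7.63 in Venus and 7.43 in C3H10T1/2, and Dhcr7 had 6.15, against 7.63 and 7.42. The second probe set of Slc38a1 differed from Venus by −0.95, short of 2-fold. The higher genes were Dcn, the decorin gene, Adam23, which encodes a cell adhesion protein and lies near Zdbf2, and Sfmbt2, a polycomb gene imprinted in the placenta. Adam23 had 9.34, against 5.69 and 6.22. Dcn had 9.12, against 6.07 in Venus and 4.06 in C3H10T1/2, and Sfmbt2 had 6.48, against 4.81 and 3.62, with C3H10T1/2 below the floor for both. The controls themselves were more than 2-fold apart for these genes, with Venus above C3H10T1/2 by 2.01 for Dcn and 1.19 for Sfmbt2. Of the listed neighbours of Igf2 and H19, Mrpl23, Ins2, Cd81, Tspan32, Tssc4, Nap1l4 and Osbpl5 were measured and were neither. Their differences from Venus lay between −0.41 for Tssc4 and 0.19 for Tspan32. Another probe set of Tspan32, 1418398_a_at, had 2.49 on the array labelled Venus-Mkx, against 4.16 in Venus and 4.72 in C3H10T1/2. Of these values only that of C3H10T1/2 was above the floor. The measured genes among the listed neighbours by Peg10 and Sgce, namely Casd1, Pon2, Pon3 and Dlx5, were neither as well. Their differences from Venus lay between −0.82 for Dlx5 and 0.68 for Casd1.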

How the data were processed

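RNA of 3 conditions was labelled from the 3′ end and hybridized to 1 array each. The deposited files hold log2 values per probe set, already normalized by the authors, and they were used unchanged. The submitters' processing notes name RMA and the methods of the study name MAS. The program behind the values is thus not settled. Their range is that of a log2 scale. Of 45101 probe sets, 64 controls were left out, 34945 were paired with 1 symbol, 932 with several and 9160 with none. Probe sets with several symbols were counted for no gene.

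The number of arrays limits the precision, and no p-value was computed. Counts were read against the same counts over 11169 measured genes. All 36 listed genes were named, with their probe set of highest mean. Of the other lists, genes at least 2-fold from both controls were named, up to 6 a list by size of difference from Venus. Irs1, the 7th such gene of the IGF list, was named after its values were seen. So were Igfbp4, Igfbp5, Igfbp7, the receptors Igf1r and Insr, the neighbours of Igf2 and of Sgce that were neither, and Dnmt1, Ctcf and Dnmt3l. The genes and lists were chosen with earlier results of these arrays known. The calling rule was tested on simulated data. Alternatives covered the floor, the probe sets per gene, the scale, the control and the fold. Names and promoter windows came from RefSeq, GRCm38.p6, and motifs were searched on both strands, namely those of Plagl1, Zfp57 and the TATA box spelled out above and that of Yy1, which occurs in 0.633% of all windows and in none of the 47. Python 3.11.15, NumPy 2.4.6, pandas 2.3.3 and matplotlib 3.10.9 were used.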

Additional observations from a re-analysis of the deposited data

How the results depend on the processing

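Igf2, Peg3 and Igf2r kept their side under all alternatives run, which covered the floor, the probe sets per gene, the scale, the control and the fold. With each gene read as the average of its probe sets, those below the floor included, 2 genes were higher, 1 was lower and 1 was apart between the controls. Meg3 then differed from Venus by 1.04 but stayed under 2-fold from C3H10T1/2, Plagl1 by 0.47, Grb10 by −0.78 and Sgce by −0.98. At 3-fold from both controls, 2 genes were higher, 1 was lower and 1 was apart between the controls. At 1.5-fold, 5 genes were higher, with Mirg added, 3 were lower and 4 were apart between the controls. Without probe sets marked _x_at and _s_at, 3 genes were higher, because Plagl1 was then below the floor. Against C3H10T1/2 alone Mest joined the lower genes, which made 4. The median difference of the measured genes ran between 0.00 with no floor and 0.29 with the floor at the 75th percentile. Of 108 differences of single genes recomputed with other probe sets, scales or controls, 93 moved by no more than the SD of 0.34 between the control arrays, 15 moved by more, and no called gene changed sign. No paired analysis was possible because each condition has 1 array. Signal over background limits every value below the floor.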

Other observations

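Of 30 listed genes that set or keep imprints, 28 had a probe set and 24 were measured, of which none was higher, 2 were lower and 22 were neither on the array labelled Venus-Mkx, and the median difference from Venus was 0.064. Over all measured genes 6.82% were higher and 5.34% were lower, so the counts do not set these genes apart. The lower genes were Uhrf1, which brings the maintenance methyltransferase to newly made DNA, and Hells, a chromatin remodeller needed for DNA methylation. Uhrf1 had a log2 value of 8.89 on the array labelled Venus-Mkx, against 10.05 in Venus and 10.02 in C3H10T1/2, and its second probe set differed from Venus by −1.17. Hells had 7.87, against 9.47 and 9.39, and 2 of its 3 probe sets were lower. Dnmt1, the maintenance methyltransferase, had 9.87, against 10.11 and 10.09, and Ctcf, which binds the control region of Igf2 and H19, had 9.89, against 9.70 and 9.75. Dnmt3l, a cofactor of methylation in germ cells, was below the floor on all 3 arrays. DNA methylation was not measured here.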
